A study of Schizosaccharomyces pombe with 16 samples.

Results

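The genes described here are those of the fission yeast Schizosaccharomyces pombe that encode Cdc2, the cyclin-dependent kinase of the cell cycle, its cyclins and its direct regulators. They are 10 of the 7014 genes in the deposited count table: cdc2, cdc13, cig1, cig2, puc1, wee1, mik1, cdc25, rum1 and ste9. They were chosen by name. The table holds 9 under these names, and ste9 was found by a synonym as srw1 (SPAC144.13c). Poly(A) RNA was sequenced from total RNA and from polysome fractions, which hold the mRNAs that sedimented with several ribosomes in a sucrose gradient. Wild type cells (WT, strain 972 h-) were compared with eIF2α.S52A cells (the mutant), whose translation factor eIF2α carries alanine in place of the serine that the eIF2 kinases phosphorylate. By the study's strain list the mutant is also h- and carries a Ura4 marker and the allele ura4-D18, which the WT strain does not. Both grew in rich YES medium and were collected in exponential growth (0 h) and after 6 h more, at the early entry into stationary phase. Strain, time and fraction make 8 groups of 2 libraries, 1 from experiment A and 1 from experiment B, 16 libraries in all.

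Cdc2 is the single kinase that drives both DNA replication and mitosis in this yeast, and it acts only when bound to a cyclin. Wee1 and Mik1 hold it inactive by phosphorylating a tyrosine of the kinase, and the phosphatase Cdc25 removes that phosphate. Rum1 inhibits the kinase directly in G1, while Ste9 directs the anaphase-promoting complex (APC/C) to destroy the mitotic cyclin. Nitrogen-starved cells of this yeast arrest in G1, where Rum1 and Ste9 are needed, and cells that run out of glucose mostly stop in G2.

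In total RNA, mik1 fell to 0.219 of its 0 h level in WT cells and to 0.268 in the mutant by 6 h, cig2 fell to 0.60 and 0.523, and puc1 rose 2.10-fold and 2.13-fold. The mRNAs of cdc2, wee1 and cdc25 had log2 changes between -0.20 and 0.16 in either fraction of either strain, with none past the threshold. In polysome fractions cdc13 and mik1 fell in WT cells and cig2 fell in the mutant. Relative to the other genes, wee1 mRNA in polysome fractions stood at 0.135 to 0.193 of its level in total RNA in the 4 groups. This is not the share of wee1 mRNA held in polysomes. In edgeR's test no gene of the 10 passed for a difference between the strains (DESeq2 called cig2 in polysome fractions at 6 h), and none passed for a change in translational efficiency (TE), the change in polysome fractions relative to that in total RNA.

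The members cig2 and mik1, which fell, are known targets of MBF, the transcription factor of the G1/S transition, whose MCB element has the core ACGCGT. The stretches of cig2 and mik1 where this core or the close variant ACGCGA is clustered are shown, with 1 of the single matches of cig1 for comparison. All were read from the RefSeq genome and annotation of assembly ASM294v3, whose positions are given. The authors aligned to ASM294v2, so these positions apply to the RefSeq assembly alone. Capitals mark the matched letters, read on the gene's own strand, where ACGCGA also appears in its reverse complement TCGCGT.
cig2, chrI:2709713-2709742, plus strand: gcgtttcTCGCGTCGCGTCGCGTttacttc
mik1, chrII:221338-221367, plus strand: aaaaACGCGAACGCGTcatgACGCGTcgta
cig1, chrIII:1227123-1227146, plus strand: tgaataagaACGCGTttttactcg
The cig2 stretch holds 3 overlapping matches to the variant, beginning 62 bases before the annotated mRNA start. The mik1 stretch holds 1 match to the variant and 2 to the core, beginning 44 bases inside the annotated 5′ leader and 357 bases before the start codon. The cig1 match lies 94 bases before the mRNA start. In the window from 250 bases before to 50 bases after the mRNA start, ACGCGT was present in 3.23% of 5145 protein-coding genes and in 1 of the 10 members, and ACGCGA in 4.43% and in 3 members (cig1, cig2 and mik1). In the 1000 bases before the start codon the shares were 7.17% and 12.3%, with 2 members (cig1 and mik1) and 3 (cig1, mik1 and ste9), since the cig2 cluster lies 1360 bases before its start codon. Cig1 holds both sets of letters and was not called as changed with time in either strain. The forkhead letters GTAAACA were in the window around the mRNA start of 16.4% of genes and of 2 members, cdc13 and cig1.

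RefSeq's gene models of the 10 members vary widely in their leaders. The leader of cdc2 is 90 bases long and holds no upstream ATG, and that of cdc13 holds none in 659 bases. The cig2 leader spans 1298 bases with 2 upstream ATGs, and the puc1 leader spans 1037 bases with 5. The mik1 leader has 5 upstream ATGs in 401 bases, and wee1 has none in 430. The remaining leaders hold 1 or 2 each, in 319 bases for cig1, 733 for cdc25, 912 for rum1 and 137 for ste9. Over the 4512 protein-coding genes with an annotated leader the median length is 97 bases, and 36.3% hold an upstream ATG.

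Libraries held 11279417 to 20522997 counts, and the 10 members had 18 to 5502 counts each per library. Levels are given as CPM, the usual library-scaled count, after TMM scaling, so they are relative to the other genes. In such bulk samples, fewer cells with an mRNA and less of it per cell cannot be told apart. Cytosolic ribosomal protein genes took 29.8% of counts in the polysome library of experiment A of the mutant at 6 h and 44% in that of experiment B, against 28.8 and 26.1% in WT cells. In total RNA of the same cells the shares were 15 and 21.5%, against 12.1 and 12.8% in WT cells at 6 h. The mutant at 0 h had 24.1 and 23.2% in total RNA and 50.6 and 50.8% in polysome fractions. In this share experiment B of the mutant at 6 h thus stands apart from experiment A and nearer the 0 h libraries of its strain. Both libraries of experiment B of this group were also left out together. Of the M-specific markers of mating type, mam1 had 61 to 2097 counts per library, mfm2 17 to 1404 and mam2 2 to 417. Mfm1 had 1 to 90 and mfm3 4 to 46, while mat1-Mc was at 0 in every library. Of the P-specific markers, map4 had 47 to 902 counts, map3 23 to 357 and map2 8 to 122, so the ranges of the 2 types overlapped. The labels give the replicates as experiments A and B. The p-values of the main fit rest on the spread between the 2 libraries of a group, shared over the 8 groups and moderated over genes. They do not use the pairing by experiment. Where the 2 libraries of a group are said to lie apart from those of another group, the share of all genes that do so was not counted.

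**Figure D1:**
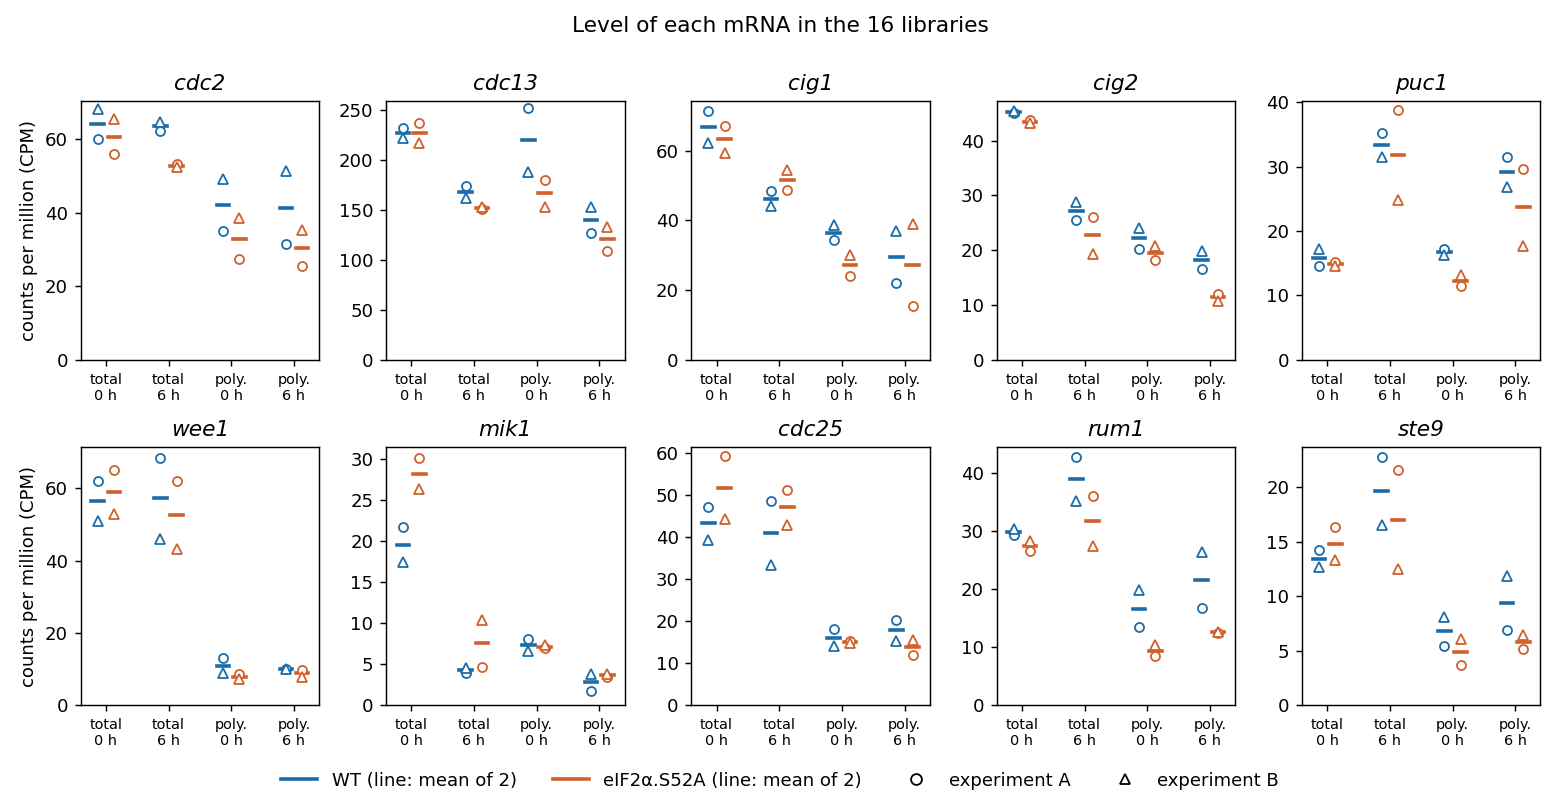
Level of each of the 10 mRNAs in CPM (linear axes from 0) in total RNA and polysome fractions at 0 h and 6 h. Circles are experiment A, triangles experiment B and lines the mean of the 2; mik1 in total RNA drops from between 17.5 and 30.1 CPM to between 3.94 and 10.5, while puc1 climbs from between 14.5 and 17.2 to between 24.9 and 38.8.

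Per kilobase of RefSeq mRNA, cdc13 was the most abundant member in every group. In total RNA of WT cells at 0 h it stood at 82.5 and 79.0 CPM per kilobase in experiments A and B. The kinase mRNA cdc2 followed with 38.7 and 44.0, and cig1 with 34.4 and 30.0. These 3 did not overlap. Next came cdc25 with 15.5 and 12.9, wee1 with 15.4 and 12.6 and rum1 with 13.1 and 13.6, which did overlap. Cig2 had 10.3 and 10.4, mik1 7.88 and 6.35, puc1 5.83 and 6.88 and ste9 5.51 and 4.89. By 6 h in WT cells mik1 had dropped to the last place, with 1.43 and 1.68 CPM per kilobase, and puc1 stood at 14.1 and 12.7, within the range of wee1 (16.98 and 11.4). In polysome fractions of WT cells at 0 h wee1, at 3.24 and 2.23 CPM per kilobase, overlapped with mik1 (2.95 and 2.41) and ste9 (2.12 and 3.13).

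Among the cyclins, cig2 encodes the B-type cyclin that promotes the onset of S phase. In total RNA its levels were 45.0 and 45.5 CPM (experiments A and B) in WT cells at 0 h, then 25.6 and 28.7. The mutant had 43.8 and 43.1, then 26.1 and 19.3 at 6 h. The times did not overlap in either strain. The log2 change was -0.74 in WT cells (SE 0.19, edgeR adjusted p = 0.028) and -0.94 in the mutant (SE 0.19, adjusted p = 0.027). In polysome fractions of WT cells cig2 went from 20.3 and 24.1 CPM to 16.6 and 19.8, a log2 change of -0.29 (SE 0.19, adjusted p = 0.327). In those of the mutant it went from 18.2 and 20.7 to 12.02 and 10.8, a log2 change of -0.77 (SE 0.20, adjusted p = 0.0422). The polysome change was past the threshold in 1 strain only, but the difference between strains was not (log2 -0.49, SE 0.28, adjusted p = 0.848). With both libraries of experiment B of the mutant at 6 h left out, its polysome change was -0.69 (adjusted p = 0.0538) and its total change -0.73 (adjusted p = 0.0415). RefSeq's cig2 transcript overlaps pmc1 on the opposite strand over 1459 bases, and pmc1 rose in total RNA by 0.997 on the log2 scale in WT cells (adjusted p = 0.02) and 1.80 in the mutant (adjusted p = 0.00261). The antisense RNA SPNCRNA.846 overlaps cig2 over 1954 bases. In edgeR's test it rose in polysome fractions of the mutant (log2 2.74, adjusted p = 0.0308). It was not called in those of WT cells (0.88, adjusted p = 0.255). In total RNA it was not called in WT cells (1.24, adjusted p = 0.081) or in the mutant (1.07, adjusted p = 0.217). Counting was by strand, and whether either overlap moved the cig2 counts was not tested. Every other member except wee1 and rum1 also overlaps opposite-strand loci by RefSeq. Among these, SPNCRNA.4612 overlaps mik1 over 2449 bases, SPNCRNA.6243 puc1 over 746 and SPNCRNA.4102 ste9 over 1296. The part of these overlaps was not tested either.

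Puc1 is a cyclin related to the G1 cyclins of budding yeast. In total RNA it had 14.5 and 17.2 CPM in WT cells at 0 h and 35.2 and 31.5 at 6 h. The mutant had 15.2 and 14.6, then 38.8 and 24.9. All 6 h libraries lay above all 0 h libraries. The log2 rise was 1.07 (SE 0.26, adjusted p = 0.0242) in WT cells and 1.09 (SE 0.26, adjusted p = 0.0494) in the mutant. In polysome fractions it went from 17.2 and 16.3 to 31.4 and 26.8 CPM in WT cells, a log2 change of 0.80 (SE 0.27, adjusted p = 0.0585), and from 11.4 and 13.2 to 29.7 and 17.7 in the mutant, a log2 change of 0.94 (SE 0.28, adjusted p = 0.0599). The polysome libraries of the 2 times did not overlap either, but neither change passed edgeR's test. DESeq2 called both (log2 0.79 and 0.92, adjusted p = 0.0435 and 0.0351), as did edgeR with the experiment as a replicate block (adjusted p = 0.0325 in WT cells and 0.0384 in the mutant). When both libraries of experiment B were left out, puc1 in the mutant changed by 1.27 in polysome fractions (adjusted p = 0.00302) and by 1.38 in total RNA (adjusted p = 0.0027).

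The mitotic B-type cyclin cdc13 fell in polysome fractions of WT cells, from 251.9 and 188.3 CPM to 126.8 and 152.8 (log2 -0.65, SE 0.20, adjusted p = 0.0373). In the mutant the polysome level went from 180.5 and 152.8 to 109.4 and 133.3 CPM (log2 -0.46, SE 0.20, adjusted p = 0.175). The strains differed in this change by 0.20 (SE 0.28, adjusted p = 0.953). In total RNA cdc13 had 231.9 and 222.1 CPM in WT cells at 0 h and 173.9 and 162.5 at 6 h (log2 -0.43, adjusted p = 0.158), and in the mutant 236.8 and 216.6, then 151.3 and 152.8 (log2 -0.58, adjusted p = 0.142). Its changes in the mutant without both libraries of experiment B at 6 h were -0.60 in polysome fractions and -0.58 in total RNA (adjusted p = 0.0941 and 0.122). In all 4 pairs of groups the 6 h libraries of cdc13 lay below the 0 h libraries, and in total RNA of both strains so did those of cig1. Cig1, another B-type cyclin, had log2 changes of -0.53 and -0.29 in total RNA of WT and the mutant and of -0.31 and 0.00 in polysome fractions, with adjusted p-values from 0.332 to 1. Without both libraries of experiment B of the mutant at 6 h, the polysome change of cig1 in the mutant was -0.82.

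Among the kinases that inhibit Cdc2, mik1 had the largest change of the 10 members. In total RNA it had 21.7 and 17.5 CPM in WT cells at 0 h and 3.94 and 4.62 at 6 h. In the mutant it had 30.1 and 26.4, then 4.66 and 10.5. The 6 h libraries lay far below those of 0 h in both strains, with experiment B of the mutant the highest of the 6 h libraries. The log2 fall was -2.19 (SE 0.39, adjusted p = 0.00862) in WT cells and -1.90 (SE 0.38, adjusted p = 0.0257) in the mutant. The change of the mutant without both libraries of experiment B at 6 h was -2.60 (adjusted p = 0.00431). In polysome fractions mik1 had 8.13 and 6.62 CPM in WT cells at 0 h and 1.79 and 3.84 at 6 h, from 20 to 90 counts a library (log2 -1.37, SE 0.41, adjusted p = 0.0387). In the mutant it had 6.94 and 7.39, then 3.43 and 3.89 (log2 -0.97, SE 0.42, adjusted p = 0.179). The strains did not differ at the threshold in this change (log2 0.40, SE 0.58, adjusted p = 0.962).

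The other inhibitory kinase, wee1, and the phosphatase cdc25 stood near their starting levels. Wee1 had 62.0 and 51.0 CPM in total RNA of WT cells at 0 h and 68.5 and 46.0 at 6 h, a log2 change of 0.02 (95% interval -0.53 to 0.57). Cdc25 had 47.2 and 39.4, then 48.6 and 33.5 (log2 -0.08, SE 0.24). The times overlapped for both genes, and in both strains and fractions their adjusted p-values ran from 0.713 to 0.976. The kinase cdc2 itself had 60.1 and 68.2 CPM in total RNA of WT cells at 0 h and 62.3 and 64.7 at 6 h (log2 -0.01, SE 0.26, adjusted p = 0.981). In the mutant it had 55.9 and 65.6, then 53.3 and 52.3 (log2 -0.20, SE 0.26, adjusted p = 0.723).

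The inhibitor rum1 had 29.3 and 30.4 CPM in total RNA of WT cells at 0 h and 42.9 and 35.2 at 6 h, and ste9 had 14.2 and 12.6, then 22.7 and 16.5. In WT cells the 6 h libraries of both genes thus lay above those of 0 h, but the log2 changes of 0.39 (SE 0.25, adjusted p = 0.337) and 0.55 (SE 0.35, adjusted p = 0.335) did not pass. In the mutant the times overlapped, with log2 changes of 0.21 for rum1 and 0.20 for ste9 (adjusted p = 0.703 and 0.808). In polysome fractions the changes of the pair lay between 0.23 and 0.46, with adjusted p-values from 0.344 to 0.777.

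**Figure D2:**
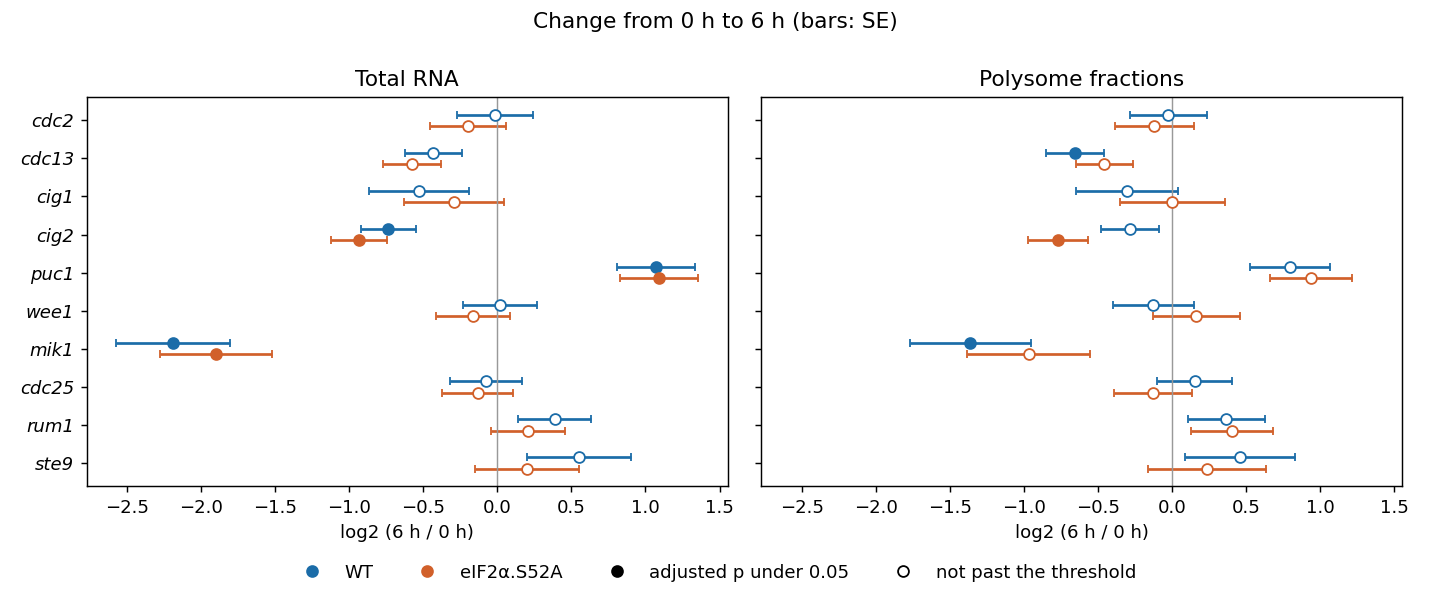
Change from 0 h to 6 h of the 10 mRNAs in total RNA (left) and polysome fractions (right), as log2 with standard error bars; filled points have an adjusted p under 0.05. Mik1 and cig2 lie left of 0 and puc1 right of 0 in all 4 comparisons, while cdc2, wee1 and cdc25 lie within 0.21 of 0.

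In all, 3 of the 10 members were called in total RNA of WT cells and the same 3 in the mutant, against 12% and 2.87% of the 6170 genes tested. In polysome fractions 2 members were called in WT cells and 1 in the mutant, against 17.5% and 6.99% of genes. The median log2 change of the 10 members was -0.05 in total RNA of WT cells, -0.18 in that of the mutant, -0.08 in WT polysome fractions and -0.06 in those of the mutant, while the medians over all genes lay between -0.04 and 0. Scaled by total counts, the median of all genes moved to 0.50 and 0.59 in the polysome changes of WT and mutant cells, where puc1 and rum1 were called higher in both strains, cdc25 in WT cells (0.65, adjusted p = 0.0451), and cdc13, mik1 and cig2 were not called. Of all genes, 529 higher and 549 lower in WT polysome fractions became 1840 and 213 under that scaling, and 210 and 221 in the mutant became 1902 and 67. Cig2 also lost its calls in total RNA under it (adjusted p = 0.154 and 0.0888). With 2 libraries a group, most of these calls needed each of 3 or 4 libraries. Without 1 library of the comparison, cig2 and puc1 lost the call in total RNA of WT cells whichever of the 4 was left out, with adjusted p-values up to 0.213 and 0.165. Mik1 lost it in WT cells without 0 h experiment A (0.0591), 0 h experiment B (0.0543) or 6 h experiment A (0.0977). In the mutant mik1 and puc1 lost it without either 0 h library or 6 h experiment A (up to 0.175 and 0.412), and cig2 without either 0 h library or the total library alone of 6 h experiment B (up to 0.193). In polysome fractions cig2 lost it without any 1 of the 4 libraries (up to 0.16), mik1 without either 0 h library or 6 h experiment A (up to 0.201), and cdc13 without 0 h experiment A or either 6 h library (up to 0.238). All of these values kept their sign, and the log2 change of mik1 in total RNA ran from -2.34 to -2.03 in WT cells and from -2.60 to -1.43 in the mutant.

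The change in TE was tested as the difference between the polysome and the total change. No member was called in either strain, against 0.0162% of all genes in WT cells and 0% in the mutant, and no member had an unadjusted p under 0.05. DESeq2 called no member either. Over all genes 156 had an unadjusted p under 0.05 in WT cells and 99 in the mutant, and DESeq2 called 6 and 3. The largest TE value was that of mik1, with a log2 of 0.83 in WT cells (95% interval -0.38 to 2.03) and 0.93 in the mutant (-0.28 to 2.14). The narrowest interval was that of cig2 in WT cells, at 0.45 (-0.14 to 1.04), or 0.91- to 2.05-fold, and the widest was that of mik1, which reaches 4.41-fold in the mutant. The value of mik1 without both libraries of experiment B of the mutant at 6 h was 1.54 (adjusted p = 0.946).

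The 2 strains were compared by the difference of their changes. No member passed for polysome fractions, total RNA or TE (edgeR), no unadjusted p was under 0.05, and none was called by DESeq2. Over all genes 0% passed in each of these comparisons, with 345, 146 and 38 genes at an unadjusted p under 0.05 and 23, 1 and 1 genes called by DESeq2. The log2 differences of the members, eIF2α.S52A minus WT, ran from -0.49 to 0.40 in polysome fractions, from -0.35 to 0.29 in total RNA and from -0.29 to 0.47 in TE. For mik1 the interval of the difference in total RNA ran from -0.85 to 1.43, so a difference of more than 2-fold would lie inside it.

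At a fixed time, the members mostly had lower polysome levels in the mutant. At 0 h all 10 log2 differences lay below 0, with a median of -0.41 against 0.03 over all genes, and at 6 h 9 of 10 did, with a median of -0.33 against 0.00. Scaled by total counts, the medians of all genes were -0.40 and -0.35, and 10 members at 0 h and 9 at 6 h lay below them. None passed the threshold, against 0% of genes at 0 h and 0.924% at 6 h. At an unadjusted p under 0.05 stood 1 member (rum1) at 0 h and 2 (rum1 and cig2) at 6 h, with 550 and 1178 of all genes. DESeq2 called no member at 0 h and cig2 at 6 h (log2 -0.70, adjusted p = 0.0416), with 41 and 383 of all genes. With all libraries, the lowest values were those of rum1. It had 13.5 and 20.0 CPM in polysome fractions of WT cells at 0 h against 8.58 and 10.4 in the mutant (log2 -0.82, SE 0.27, adjusted p = 0.461), and 16.8 and 26.5 against 12.5 and 12.7 at 6 h (log2 -0.78, SE 0.26, adjusted p = 0.14). The strains did not overlap at either time for rum1 or wee1, nor at 0 h for cdc13, cig1 and puc1 or at 6 h for cig2 and ste9. Without both libraries of experiment B of the mutant at 6 h, 8 of 10 differences lay below 0 at that time, rum1 had -0.79 (adjusted p = 0.229) and cig1, at -0.12 with them, had the lowest value, -0.94 (adjusted p = 0.158). For cig2 at 6 h, 16.6 and 19.8 CPM in WT cells stood against 12.02 and 10.8 (log2 -0.68, SE 0.20, adjusted p = 0.115), with -0.60 (adjusted p = 0.183) when experiment B was left out. Ribosomal protein genes took 50.6 and 50.8% of polysome counts of the mutant at 0 h, against 43.8 and 45.7% in WT, and their part in these differences was not tested.

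In total RNA the strains were closer. No member passed at 0 h or 6 h, against 0.0162% and 0.519% of genes, no unadjusted p was under 0.05 and none was called by DESeq2. The differences ran from -0.12 to 0.53 at 0 h and from -0.30 to 0.82 at 6 h, and mik1 had the highest at both times. At 6 h its log2 difference was 0.82 (SE 0.38, adjusted p = 0.383), with 4.66 and 10.5 CPM in the mutant and 3.94 and 4.62 in WT cells. Without both libraries of experiment B of the mutant it was 0.12 (adjusted p = 0.998). Rum1 at 0 h, by contrast with its polysome level, had 26.7 and 28.3 CPM in total RNA of the mutant and 29.3 and 30.4 in WT cells (log2 -0.12, SE 0.25).

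**Figure D3:**
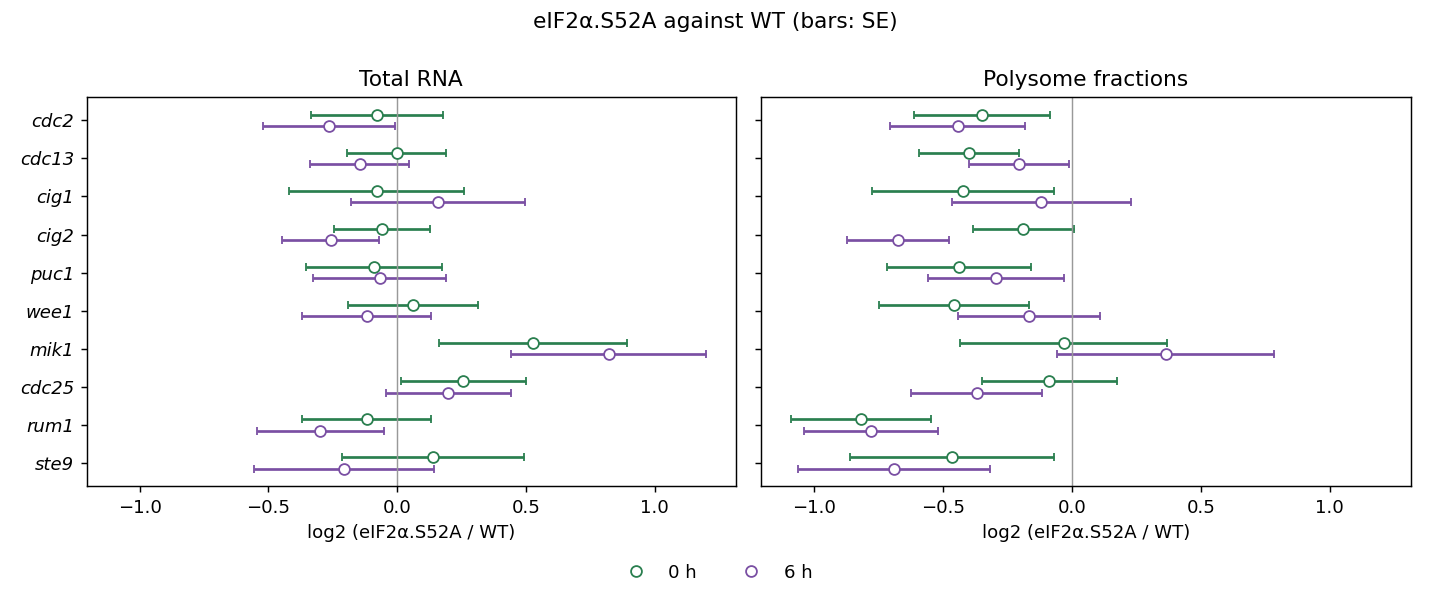
Difference between eIF2α.S52A and WT cells of the 10 mRNAs at 0 h and 6 h in total RNA (left) and polysome fractions (right), as log2 with standard error bars. In polysome fractions all 10 values at 0 h and 9 of 10 at 6 h lie left of 0, with rum1 the lowest at -0.82 and -0.78, and none has an adjusted p under 0.05.

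The polysome level of each mRNA was read against the total level of the same group. Both levels are scaled by TMM, so this ratio is relative to the other genes. It is not the share of an mRNA that was held in polysomes. Wee1 was the lowest. In WT cells at 0 h it had 13.1 and 8.98 CPM in polysome fractions against 62.0 and 51.0 in total RNA (log2 -2.37, SE 0.27, adjusted p = 0.000105), and at 6 h 9.997 and 9.98 against 68.5 and 46.0 (log2 -2.52, SE 0.27, adjusted p = 9.16e-05). In the mutant it had 8.58 and 7.39 against 65.1 and 53.0 at 0 h (log2 -2.89, SE 0.29, adjusted p = 1.8e-05), and 9.90 and 7.89 against 62.0 and 43.3 at 6 h (log2 -2.57, SE 0.28, adjusted p = 4.73e-05). No polysome library came near any total library. Of the 5012 protein-coding genes tested, 0.878 to 1.52% lay lower than wee1 in the 4 groups. The phosphatase cdc25 was low as well, with log2 values of -1.43 and -1.20 in WT cells at the 2 times and -1.78 and -1.77 in the mutant, with adjusted p-values from 0.0002 to 0.00297. These calls of wee1 and cdc25 held without any 1 library and under each alternative run.

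At the other end, cdc13 and puc1 were not called in any group. Cdc13 had 251.9 and 188.3 CPM in polysome fractions of WT cells at 0 h against 231.9 and 222.1 in total RNA (log2 -0.04, SE 0.19), and its 4 values lay between -0.44 and -0.04. Those of puc1 lay between -0.43 and 0.08, and without polysome experiment A of the mutant at 6 h its value there was -0.85 (adjusted p = 0.0395). The S-phase cyclin cig2 was lower in polysome fractions in all 4 groups, with log2 values of -1.03 and -0.57 in WT cells at 0 h and 6 h and of -1.16 and -0.99 in the mutant (adjusted p from 0.000551 to 0.0337). Rum1 was lower as well, by -0.83 and -0.85 in WT cells and -1.53 and -1.33 in the mutant (adjusted p from 0.00072 to 0.0231). The call of cig2 in WT cells at 6 h was lost without any 1 of its 4 libraries (adjusted p up to 0.198). That of rum1 in WT cells was lost at 0 h without either total library or polysome experiment A (up to 0.172), and at 6 h without total or polysome experiment A (up to 0.175).

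Ste9 lay at -0.97 in WT cells at 0 h (adjusted p = 0.0559) and was called in the other 3 groups, at -1.06, -1.58 and -1.54, with the WT call at 6 h lost without total or polysome experiment A (up to 0.242), that of the mutant at 0 h without polysome experiment A (0.0529) and that at 6 h without total experiment A (0.055). Mik1 lay at -1.41 and -0.59 in WT cells (adjusted p = 0.0126 and 0.274) and at -1.97 and -1.04 in the mutant (0.00167 and 0.0517), and in WT cells at 0 h the call was lost without total experiment A (0.0749) or polysome experiment B (0.087). Cdc2 and cig1 were called in the mutant only, cdc2 at -0.87 and -0.79 and cig1 at -1.22 and -0.92 at 0 h and 6 h. In WT cells cdc2 lay at -0.60 and -0.61 and cig1 at -0.87 and -0.65, and whether the strains differ in this ratio was not tested. The cdc2 call was lost at 0 h without total experiment B (0.0971) or polysome experiment A (0.129), and the cig1 call without total or polysome experiment A (0.0663 and 0.0898). At 6 h both were lost without either total library or polysome experiment A (up to 0.18 and 0.301).

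Of the members, 5 of 10 were called lower in polysome fractions in WT cells at 0 h and 5 at 6 h, against 18.4% and 18.3% of all genes tested. In the mutant 8 and 7 were, against 22.4% and 21% of genes. None was called higher. Without both libraries of experiment B of the mutant at 6 h the same 7 were called there, and no member was called between the strains at that time in either fraction. With the experiment as a replicate block, cdc2 (adjusted p = 0.0153) and cig1 (0.0355) were added in WT cells at 0 h, cdc2 (0.0125) in WT cells at 6 h and mik1 (0.0446) in the mutant at 6 h. The median of the 10 values was -0.92 and -0.63 in WT cells and -1.37 and -1.02 in the mutant at 0 h and 6 h, against medians of all genes between -0.07 and -0.04. This ratio fell with the length of the mRNA over all protein-coding genes, with a Spearman correlation across genes of -0.58 to -0.52 in the 4 groups. In WT cells at 0 h its median was 0.99 in genes with mRNAs under 1 kb, 0.21 from 1 to 2 kb, -0.37 from 2 to 3 kb and -0.79 over 3 kb. The members' mRNAs are 1551 (cdc2) to 4381 bases (cig2) long by RefSeq, against a median of 1674 over all coding genes, and wee1 has 4032, cdc25 3046, cdc13 2813 and puc1 2492. The part of length in the members' values was not tested. TMM sets the level of most genes equal between fractions. When libraries were scaled by their total counts instead, the median of all genes shifted to between -1.62 and -0.95, all 10 members were called lower in polysome fractions in every group, puc1 in WT cells at 0 h went from 0.08 to -1.10 (adjusted p = 0.006), and the 1138 genes higher and 1134 lower in WT cells at 0 h became 200 and 3962.

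**Figure D4:**
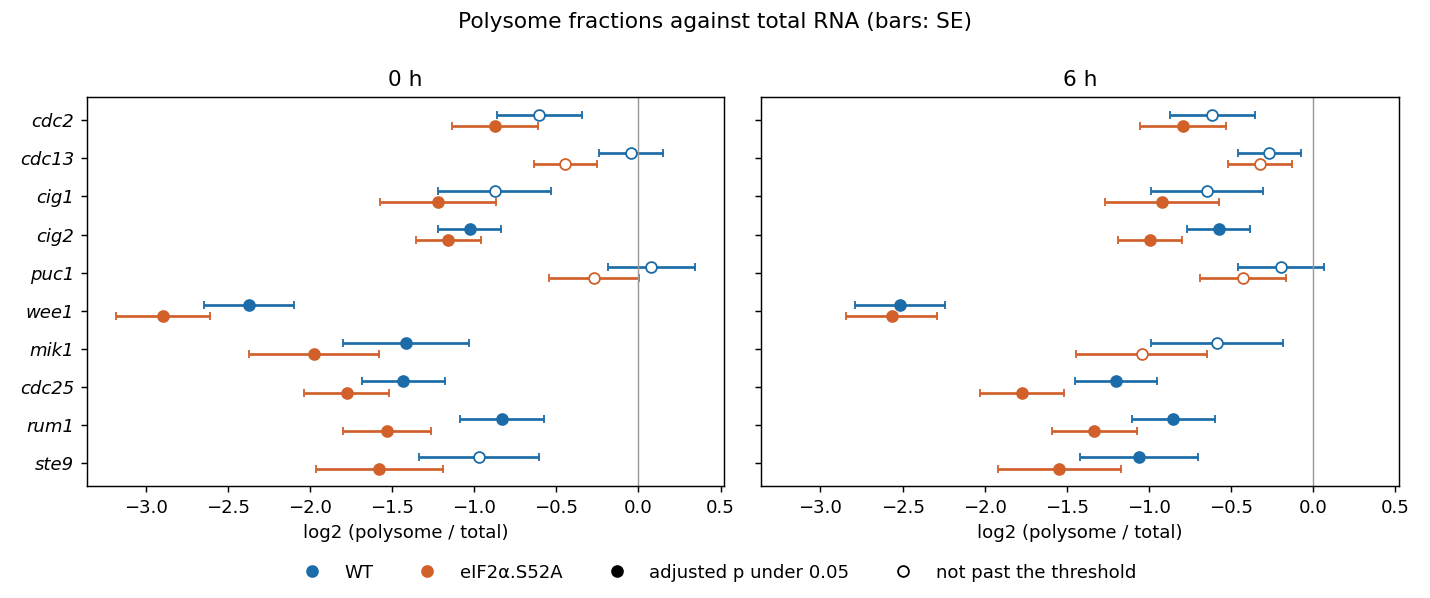
Polysome fractions against total RNA of the same group for the 10 mRNAs at 0 h (left) and 6 h (right), as log2 with standard error bars; filled points have an adjusted p under 0.05. Wee1 is lowest at -2.37 to -2.89, and cdc13 and puc1 lie between -0.44 and 0.08 with open points in all 4 groups.

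Around the members, 5 lists of pathway genes were read by counts. In total RNA of WT cells 12% of all genes were called, 370 higher and 371 lower. The 19 genes of MBF transcription and replication initiation had a list median of -0.27 there, against -0.01 over all genes. Of these 19 genes, 0 rose and 4 fell. These were rep2, an activator subunit of MBF (log2 -0.88, adjusted p = 0.012), cdt1, a licensing factor of replication origins (-1.24, 0.0391), cdc22, the large subunit of ribonucleotide reductase (-0.84, 0.028), and pol1, the catalytic subunit of DNA polymerase α (-0.70, 0.0243). In the mutant, with 2.87% of genes called (131 higher and 46 lower), rep2 alone fell (-1.24, 0.00347), and the list median was -0.38. In polysome fractions rep2 and pol1 fell in WT cells (-0.90 and -0.80, adjusted p = 0.00687 and 0.0128) and rep2 in the mutant (-0.95, 0.0123), against 17.5% and 6.99% of all genes called.

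The list on destruction of the cyclins and Rum1 holds 23 genes of the APC/C and SCF ubiquitin ligases and their regulators, 21 of them tested. Fzr3 was matched by a synonym to a row described as a predicted dehydrogenase, and it was not tested. In this list slp1 fell in all 4 time comparisons. Slp1 activates the APC/C at anaphase, and its log2 changes were -1.46 and -1.64 in total RNA of WT and the mutant and -1.75 and -1.54 in polysome fractions, with adjusted p-values from 0.00889 to 0.0312. Fzr2, a Fizzy-related gene, fell in WT cells (-1.32 in total RNA, adjusted p = 0.0371, and -1.38 in polysome fractions, 0.0344), and apc11, the catalytic RING subunit, rose in total RNA of WT cells (0.71, 0.0437). Of the 21 genes, 3 were called in total RNA of WT cells and 1 in that of the mutant, against 12% and 2.87% of all genes, and 2 and 1 in polysome fractions, against 17.5% and 6.99%. The list medians lay between -0.06 and 0.15.

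Of the 20 genes that act on Wee1, Mik1 and Cdc25, none was called in total RNA of either strain or in polysome fractions of the mutant, with list medians of 0.03, -0.03 and 0.23. In polysome fractions of WT cells nif1, an inhibitor of the Wee1-inhibiting kinase Cdr1, fell (-1.24, adjusted p = 0.0201), and cds1, the kinase of the replication checkpoint, rose (0.76, 0.0246). Of the 7 genes that activate Cdc2, bind it or reverse its phosphorylations, none was called in any of the 4. Of 13 other cyclins and their kinases (12 tested), pas1, a cyclin of the kinase Pef1, rose in WT cells by 1.80 in total RNA (adjusted p = 0.0213) and 2.36 in polysome fractions (0.00616), and the meiotic cyclin crs1 fell in WT polysome fractions (-1.49, 0.0328). The calls of these 3 lists in WT cells, 0, 0 and 1 in total RNA and 2, 0 and 2 in polysome fractions, stand against 12% and 17.5% of all genes. No gene of the table passed edgeR's test of a strain difference in these changes (DESeq2 called 23 for polysome fractions and 1 for total RNA), so a call in 1 strain alone does not show that the strains differ.

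The genes most like each member in level over the 16 libraries were found by Pearson's r of log2 CPM among 5121 genes with a mean of at least 2. The 16 values share libraries, and the contrast between the fractions weighs in all of them, so r is a description. Cig2 was closest to cdc18 (r = 0.93), which loads the replicative helicase and is an MBF target. Nearly as close to cig2 were rng3 and the predicted intergenic RNA SPNCRNA.1443 (both 0.92). Cdc13 was closest to a predicted amino acid permease (SPAC1039.01, 0.95), followed by cdt1 (0.93) and kei1 (0.90). Mik1 was closest to 3 antisense RNAs, those of spo4, cao2 and byr1 (0.94 to 0.95). Puc1 was like a predicted transporter (SPAC14C4.07, 0.95), ecl1, an extender of chronological lifespan (0.95), and the eIF2α kinase hri1 (0.94). Wee1 was closest to the checkpoint kinase rad3 (0.99), to mak1, a histidine kinase, and to cdr1, a kinase that inhibits Wee1 (both 0.98). Cdc25 was like lkh1 (0.98), rad3 and wee1 (both 0.97), and rum1 was like toe2 (0.98), ste9 and ymr1 (both 0.97). For cdc2 the nearest was SPAC630.12, a predicted phosphatase (0.98), for cig1 wpl1, the releasing factor of cohesin (0.97), and for ste9 vps5 of the retromer (0.98). Over the 8 total libraries alone, wee1 and rad3 had r = 0.52, cig2 and cdc18 0.91, puc1 and hri1 0.97 and mik1 and the spo4 antisense RNA 0.96. Among the members themselves, puc1 and mik1 went opposite ways over these 8 libraries (r = -0.98), and cdc13 and cig2 went together (0.94). The contrast between 0 h and 6 h weighs in r over these 8 libraries, so these values in part restate the changes with time.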

How the data were processed

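Total RNA and polysome fractions were sequenced in 16 libraries, in 8 groups of 2. The authors made stranded poly(A) libraries, aligned reads with STAR to ASM294v2, indexed them with SAMtools and counted them per gene and strand with QoRTs. Versions of these tools are not stated. The authors deposited raw counts, which are whole numbers and carry no normalization. Their normalized values were not used.

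Genes were kept by filterByExpr over the groups, which left 6170 of 7014, all 10 members among them. Counts were scaled by TMM (factors 0.434 to 1.69) and tested by edgeR's quasi-likelihood F-test in 1 model of the 8 groups (edgeR 4.0.16, limma 3.58.1, R 4.3.3). There were 17 comparisons, with Benjamini-Hochberg adjustment over all genes tested, called at an adjusted p under 0.05. CPM had a prior count of 1 on the log2 scale. DESeq2 1.42.0, other scalings, no filter, a replicate block, own-group fits and left-out libraries were alternatives. The labels' experiment letters pair the samples. Deviations of same-numbered samples correlated from -0.09 to 0.58 over the 28 pairs of groups, over 0.1 in 22. All members and up to 4 called genes of a list are named. Of the 3 genes most like a member, the first alone is named for cdc2, cig1 and ste9 and all 3 for the others. Members, lists and alternatives were chosen with earlier results of these data known.

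RefSeq's ASM294v3 gave gene lengths, leaders and sequences. That assembly differs from the one aligned to. Its mRNA lengths and gene overlaps were joined to the counts by gene identifier, so they may differ from the models that were counted. Of the list genes, 6 were found by a synonym. The results of 1 gene list and 2 motif searches are not reported here.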

Additional observations from a re-analysis of the deposited data

How the results depend on the processing

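Each of the 34 called member values was recomputed under 10 or 11 alternatives, 351 values in all, of which 277 kept the call, 74 lost it and 0 reversed. Each group held 2 libraries, and the lowest count of a member was 18. Leaving out 1 library of a comparison gave 0 to 1 members called in polysome change of WT cells (2 with all libraries), and 0 to 1 in the mutant, where cig2 was lost each time and the 1 was puc1. In total change it gave 0 to 1 in WT cells and 0 to 2 in the mutant (3 each with all). In polysome fractions against total RNA the number called was 3 to 4 in WT cells at 0 h, 2 to 5 at 6 h (with cdc2 added and 4 of the first 5 kept at most), and in the mutant 5 to 8 at 0 h and 5 to 7 at 6 h (with mik1 or puc1 added in 2 of these, and 4 to 7 of the first 7 kept). Fitted on the groups of a comparison alone, 0 members were called in polysome change of either strain and in total change of the mutant, and 4 of 7 in polysome fractions against total RNA of the mutant at 6 h, while cig1 was added in total change of WT cells (adjusted p = 0.032). Scaled by total counts, 2 members were called in polysome change of the mutant, 1 between strains in polysome fractions at 6 h (cig2), and 10 in polysome fractions against total RNA of WT cells at both 0 h and 6 h. DESeq2 called 2 members in polysome change of the mutant and 1 between strains in polysome fractions at 6 h, and added cdc13 in total change of the mutant (-0.59, adjusted p = 0.037), and cig1 and ste9 in WT cells at 0 h and mik1 in the mutant at 6 h in polysome fractions against total RNA. With the replicate block, 2 members were called in polysome change of the mutant, and no call changed other than those given beside the results. The block called 1691 of all genes against 1078 in polysome change of WT cells, 845 against 431 in the mutant, 1374 against 741 and 462 against 177 in total change, and 229 against 57 and 98 against 32 between strains at 6 h in polysome fractions and total RNA. DESeq2 called 869 and 1255 in polysome change of the mutant and total change of WT cells, and 481 in that of the mutant. Puc1 in total change of the mutant also lost its call with RLE factors (adjusted p = 0.0573) and with no count filter (0.0507), and cig2 in polysome fractions against total RNA of WT cells at 6 h with RLE factors (0.0552). The causes were not tested.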
